A study of Mus musculus with 12 samples.

Results

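The genes described here are 10 regulators of the G1 phase of the cell cycle, of 14042 genes with a kept read. They are the D-type cyclins Ccnd1, Ccnd2 and Ccnd3, the E-type cyclins Ccne1 and Ccne2, the kinases Cdk2, Cdk4 and Cdk6, and the inhibitors Cdkn1a and Cdkn1b. They were chosen by name, with earlier results of these data known. Every read that passed the poly(A) quality tag, was classed as mRNA and was assigned to one of them was used (5487 of 4274320 kept reads). The cells were P19, a mouse embryonal carcinoma line, sequenced undifferentiated at day 0 (D0) and after 2, 4 and 6 days (D2, D4 and D6) in NDiff 227 medium with 500 nM retinoic acid. Undifferentiated cells were kept in medium with serum and no label gives them retinoic acid, so medium and retinoic acid changed together. All groups are this 1 line with no genetic change, and each day has 3 replicates described as biological. Poly(A) RNA was read directly on nanopores, so that 1 read is 1 molecule with its own tail.

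Passage from G1 into S phase is driven by cyclins, the regulatory subunits that switch on cyclin-dependent kinases. D-type cyclins pair with Cdk4 or Cdk6 and start to phosphorylate the retinoblastoma protein, which holds E2F transcription factors in check. E-type cyclins pair with Cdk2 and complete that step, so that E2F target genes for DNA replication are expressed. Cdkn1a (p21) and Cdkn1b (p27) bind the cyclin-kinase pairs, and the family is known for its part in the exit of neural progenitors from the cycle.

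Kept reads per library ranged from 120326 to 613756, with D2 the shallowest day. The labelled states were checked on marker genes, each list being summed as reads per 1000000 of the scaled library (CPM). The 5 markers of undifferentiated cells with reads summed to 1890 to 2176 CPM at D0 and to 3.60 to 8.41 CPM at D6. The 10 neuronal markers went from 568 to 588 CPM up to 3026 to 3281 CPM, while 4 glial markers never passed 39.6 CPM. The 5 neural progenitor markers went from 325 to 359.5 CPM up to 859 to 1003 CPM, with 4 called higher and 1 lower at D6. Fabp7, a lipid-binding protein, accounted for most of that sum's rise (3.45 to 554 CPM), and Sox2, a transcription factor also found in undifferentiated cells, fell from 266 to 198 CPM (log2 -0.41, adjusted p = 0.0206). The 5 fibroblast or muscle markers with reads went from 38.2 to 44.2 CPM at D0 down to 0 to 7.20 CPM at D6, and 4 of mesoderm or endoderm from 6.36 to 14.6 CPM down to 2.10 to 5.49 CPM. The 4 proliferation markers summed to 832 to 948 CPM at D0, rose to between 1107 and 1117 at D2, and were at 875 to 895 by D4 and 593 to 699.9 by D6, so they moved together with several of the changes below. The part of these cell type and proliferation markers in those changes was not tested. In such bulk RNA, fewer cells of a type and less RNA per cell cannot be told apart. Each of the 13 sequencing runs held 1 day, so run and day cannot be told apart either. Names of the D0 runs also carry a D2 mark, but the D0 libraries hold the markers of undifferentiated cells.

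G1 regulators did not move as a block. Of the 9 members with enough reads to test, 6 changed at D6 against D0 (adjusted p of at most 0.05 over all 9309 genes tested, limma-voom). Ccnd1 and Cdkn1b rose, where 19% of all genes were called higher, and Ccnd2, Ccnd3, Ccne1 and Cdk6 fell, where 18.7% of all genes were called lower. At D4, Cdk4 rose (background 12.9% higher) and Ccnd3, Ccne1 and Cdk6 fell (background 12.5% lower). At D2, Ccnd2, Cdk2 and Cdk4 rose (background 4.69% higher) and Ccnd3 alone of the 9 fell (background 6.16% lower). The median log2 fold change of the 9 members was 0.46, -0.15 and -0.29 from D2 to D6, against -0.04, 0.01 and 0.00 over all genes tested. With total reads as the scale the median of all genes shifted to 0.13, 0.12 and 0.26 at the 3 days, and the share of higher genes among those called went from 43.3%, 50.6% and 50.5% to 65.5%, 62.4% and 69.3%, while no member changed sign. Thinning every library to the smallest left 1, 2 and 3 members called at D2, D4 and D6.

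**Figure D1:**
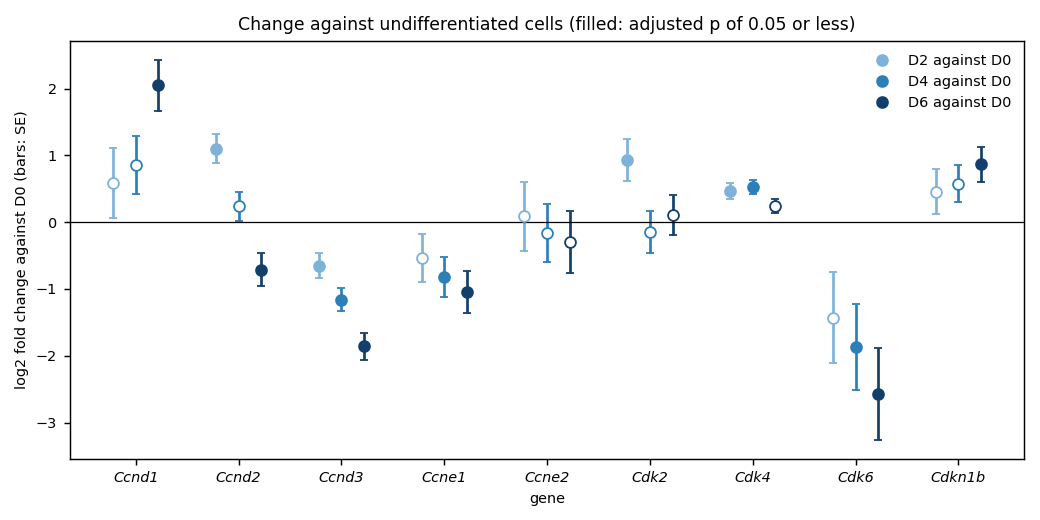
Log2 fold change (vertical axis) of the 9 tested members at D2, D4 and D6 against D0, with bars of 1 SE and filled points where the adjusted p is 0.05 or less. Ccnd1 ended highest, at 2.05, and Cdk6 lowest, at -2.57, while Ccnd2 changed from 1.10 at D2 to -0.71 at D6.

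Ccnd3, a D-type cyclin, gave most of the D-type reads in undifferentiated cells and was lower than that at each later day. Its level was 204, 221 and 255 CPM in the 3 D0 libraries and 140, 140 and 147 CPM at D2. At D4 the libraries gave 105, 100.3 and 97.8 CPM, and at D6 they gave 61.2, 52.5 and 74.1 CPM. No library of one day overlapped with those of another day. Against D0 the log2 fold change was -0.65 ± 0.19 (SE) at D2 (adjusted p = 0.0175), -1.16 ± 0.17 at D4 (adjusted p = 2.78e-07) and -1.86 ± 0.20 at D6 (adjusted p = 1.13e-11), a 3.63-fold fall by D6. Against the day before, D4 did not pass (log2 -0.51, adjusted p = 0.225; 3.1% of genes called in that step). D6 was called lower than D4 (log2 -0.70, adjusted p = 0.0402; 8.46% of genes called), a call lost in 13 of 26 alternatives, among them each that left out a D4 or D6 replicate (-0.80 to -0.51). In single runs, with no scaling factor, it took 174 to 217 reads per 1000000 at D0 and 19.1 to 85.5 at D6. The D6 extremes were 1 read in 52385 and 5 reads in 58490, and the larger runs gave 67.7 and 68.4. The D2 call was lost in 9 of 26 alternatives, among them those without D0 replicate 2 (-0.62), D0 replicate 3 (-0.51), D2 replicate 2 (-0.57) or D2 replicate 3 (-0.64). Others were total reads as the scale (-0.48), the most-read transcript alone (236 reads, -0.67) and thinned libraries (-0.63). Only 99 of its 581 reads (17.0%) had a mapping quality of at least 10, and with those the D4 difference was -0.0033 (adjusted p = 0.997) and the D6 difference -1.76 (adjusted p = 0.0598).

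Most Ccnd3 transcripts with reads share their 3′ exons. The gene lies on chromosome 17, plus strand of GRCm38, with annotated starts near base 47505128 (transcript 47505128 to 47599691, 7 exons) and base 47593470 (transcript 47593470 to 47599689, 5 exons). RefSeq gives a promoter for each, and both are printed because the read starts were set against them. Capitals mark GGGCGG on either strand, the Sp1 box, which 35.7% of 32851 promoters of the same length hold; neither Ccnd3 promoter holds TTTNNCGC (E2F, 5.17% of promoters) or TGACGTNA (CRE, 2.93%).
Ccnd3 downstream promoter, chr17:47593217-47593516, plus strand: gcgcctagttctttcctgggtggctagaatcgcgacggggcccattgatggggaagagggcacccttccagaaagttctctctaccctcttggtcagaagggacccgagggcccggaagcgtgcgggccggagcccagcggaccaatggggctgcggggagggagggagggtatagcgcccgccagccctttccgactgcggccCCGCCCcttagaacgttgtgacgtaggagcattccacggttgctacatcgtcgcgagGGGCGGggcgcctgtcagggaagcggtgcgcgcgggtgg
Ccnd3 upstream promoter, chr17:47504801-47505100, plus strand: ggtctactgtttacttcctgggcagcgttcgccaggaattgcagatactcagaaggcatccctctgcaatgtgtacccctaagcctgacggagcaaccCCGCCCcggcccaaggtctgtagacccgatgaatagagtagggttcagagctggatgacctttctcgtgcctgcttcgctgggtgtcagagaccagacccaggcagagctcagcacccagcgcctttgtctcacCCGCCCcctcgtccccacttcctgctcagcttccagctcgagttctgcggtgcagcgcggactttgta
Of the 581 reads, 68 started within 50 bases of the downstream start and 2 (1 at D0 and 1 at D4) started upstream of that promoter, neither of them within 50 bases of an annotated upstream start. The other 511 started further into the gene and were not assigned to a start. By day, the reads at the downstream start were 40 of 324, 5 of 79, 18 of 109 and 5 of 69 from D0 to D6.

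Ccnd2, the D-type cyclin best known in neural progenitors, rose and then fell. The D0 libraries held 82.6, 77.3 and 93.3 CPM and the D2 libraries 140, 235 and 152 CPM. D4 gave 84.1, 88.3 and 121 CPM and D6 gave 64.8, 48.3 and 43.9 CPM. All D2 libraries were above, and all D6 libraries below, those of the other days. The rise at D2 was 2.14-fold (log2 1.10 ± 0.22, adjusted p = 0.000149), and D4 did not pass the test against D0 (log2 0.24, adjusted p = 0.448). The level at D6 was 1.64-fold lower than at D0 (log2 -0.71 ± 0.25, adjusted p = 0.0173). Against the day before, it fell at D4 (log2 -0.86, adjusted p = 0.0129) and at D6 (log2 -0.95, adjusted p = 0.00814). Per run, D2 gave 179 to 210 reads per 1000000 and D0 69.7 to 85.7. The D2 call was lost with thinned libraries (0.77, adjusted p = 0.148). The D6 call against D0 was lost without D0 replicate 3 (-0.61), D6 replicate 2 (-0.64) or D6 replicate 3 (-0.59), with total reads (-0.45) and with barcode confidence of at least 0.9 (-0.62, adjusted p = 0.0627). The step to D4 was lost in 3 alternatives, without D2 replicate 2 (-0.65) or D4 replicate 2 (-0.82) and thinned, and the step to D6 in 6, among them without D4 replicate 3 (-0.75), D6 replicate 2 (-0.87) or D6 replicate 3 (-0.82).

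Ccnd1, the D-type cyclin that growth factors induce, was scarce in undifferentiated cells and was higher at D6. The D0 libraries held 6, 5 and 11 reads (14.6, 9.20 and 23.3 CPM), and the D2 libraries 3, 2 and 10 reads (24.6, 8.23 and 52.3 CPM). At D4 there were 6, 10 and 13 reads (25.2, 23.9 and 30.3 CPM), and at D6 12, 30 and 30 reads (43.2, 63.1 and 82.4 CPM). The D6 libraries stood above all D0 and D4 libraries, and the lowest of them was below the highest at D2. The change at D6 was 4.15-fold against D0 (log2 2.05 ± 0.38, adjusted p = 1.16e-05) and 2.29-fold against D4 (log2 1.19 ± 0.34, adjusted p = 0.0177). D2 and D4 did not pass against D0 (adjusted p = 0.543 and 0.143), but with reads of all quality tags D4 was called (log2 1.25, adjusted p = 0.0122). Per run the range was 8.93 to 19.5 reads per 1000000 at D0 and 34.2 to 115 at D6. The D6 extremes rested on 2 and 6 reads, and the larger runs gave 63.9 and 75.7. With thinned libraries the D6 difference was 1.21 (adjusted p = 0.166). The step from D4 was lost in 5 of 26 alternatives, among them those without D4 replicate 2 (1.13) or D6 replicate 3 (1.04) and thinned libraries (0.58).

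The make-up of the D-type reads differed between days. Ccnd3 made up 69.4 ± 2.18% of them at D0 (mean ± SD, n = 3), 41.4 ± 4.70% at D2, 45.2 ± 5.19% at D4 and 35.1 ± 2.65% at D6. Ccnd1 went from 4.71 ± 1.65% to 35.0 ± 8.33%, and Ccnd2 from 25.9 ± 1.31% at D0 to 50.2 ± 9.72% at D2. The D4 libraries gave Ccnd2 43.1 ± 4.88%, near the Ccnd3 share of that day, and the D6 libraries gave it 29.9 ± 8.20%. Shares of Ccnd1 and Ccnd3 did not overlap between D0 and D6, whereas those of Ccnd2 did. The two-sided exact permutation test gave p = 0.1 for each of Ccnd1 and Ccnd3 at D6, the smallest value that 3 against 3 libraries allow (0.129 after Benjamini-Hochberg adjustment over 9 comparisons), and p = 0.6 for Ccnd2. Summed over the 3 genes, D-type levels were 327 ± 38.7, 346 ± 39.7, 225 ± 20.6 and 178 ± 19.7 CPM from D0 to D6. With mapping quality of at least 10, which removes most Ccnd3 reads, the Ccnd2 share at D6 differed from D0 by -20.5 points, against a difference of 4.00 points with all reads.

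**Figure D2:**
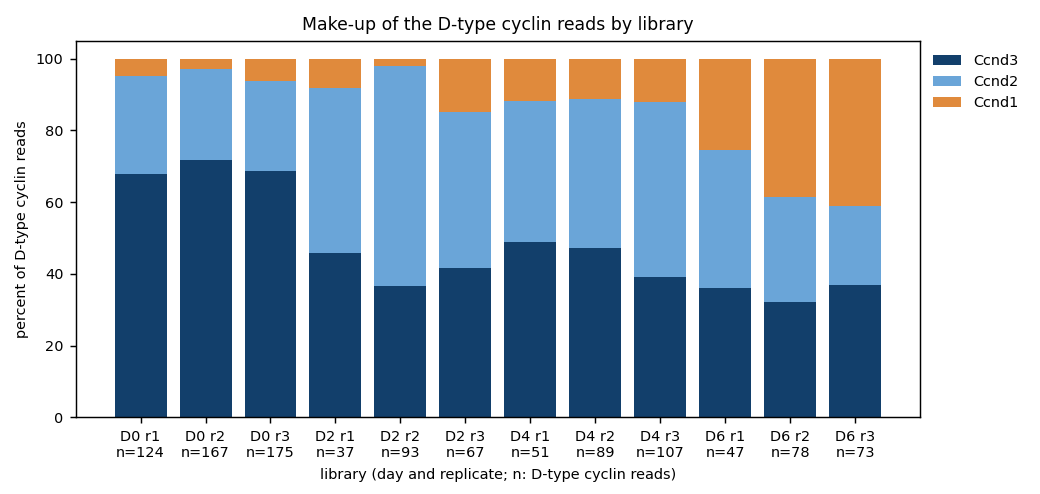
Percent of D-type cyclin reads (vertical axis) taken by Ccnd3, Ccnd2 and Ccnd1 in each of the 12 libraries, with the number of D-type reads under each bar. Ccnd3 took 67.7% to 71.9% at D0 and 32.1% to 37.0% at D6, and Ccnd1 25.5% to 41.1% at D6.

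Of the E-type cyclins, which activate Cdk2, Ccne1 fell and Ccne2 did not pass the test. Ccne1 stood at 48.6, 46.0 and 61.5 CPM at D0, 24.6, 41.2 and 31.4 CPM at D2, 29.4, 26.3 and 30.3 CPM at D4, and 25.2, 23.1 and 24.7 CPM at D6. Every later library was below every D0 library. The fall was called at D4 (log2 -0.82 ± 0.30, adjusted p = 0.0362) and D6 (log2 -1.04 ± 0.31, adjusted p = 0.00582), and at D2 the difference was -0.53 (adjusted p = 0.391). The D4 call was lost in 10 of 26 alternatives, among them the fits without D0 replicate 3 (-0.69), D4 replicate 1 (-0.84), D4 replicate 2 (-0.74) or D4 replicate 3 (-0.87). It was also lost with limma trend (-0.81), no filter (-0.83), total reads (-0.70), counting by transcript (-0.79) and thinned libraries (-0.31, adjusted p = 0.817). With thinned libraries the D6 difference was -0.05 (adjusted p = 0.964). Ccne2 had 1 to 11 reads per library and means of 18.8 ± 1.64, 18.3 ± 9.19, 19.2 ± 9.11 and 16.4 ± 11.3 CPM from D0 to D6. Only 3 of its 77 reads (3.90%) had a mapping quality of at least 10. Its D6 difference was smaller than its SE (log2 -0.29 ± 0.47, adjusted p = 0.658). Whether a change of this size could be detected at this depth was not tested.

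Cdk4, the kinase partner of the D-type cyclins, had 3706 of the members' reads and so the most precise values. Its libraries held 624, 769 and 791 CPM at D0 and 1010.1, 934 and 1094 CPM at D2. At D4 they held 1182, 1070 and 952 CPM and at D6 987, 805 and 835 CPM. No library of D2, D4 or D6 was below the highest D0 library. The rise was 1.38-fold at D2 (log2 0.47 ± 0.12, adjusted p = 0.00336) and 1.44-fold at D4 (log2 0.53 ± 0.10, adjusted p = 6.46e-05), and both calls held in all 26 alternatives. D6 missed the threshold (log2 0.24 ± 0.11, adjusted p = 0.0651), but 8 of 26 alternatives called it, among them total reads (0.50, adjusted p = 1.44e-05) and the fits without D0 replicate 3 (0.33) or D6 replicate 2 (0.34). Runs gave 615 to 691 reads per 1000000 at D0, 885 to 1050 at D2, 1002 to 1112 at D4 and 879 to 1026 at D6.

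Cdk2, the partner of the E-type cyclins, was called at D2 but rested on few reads. Its D0 libraries held 29.2, 35.0 and 50.9 CPM, and its D2 libraries 41.1, 86.4 and 78.5 CPM, so that D2 replicate 1 (5 reads) fell within the D0 range. D4 gave 33.6, 26.3 and 41.9 CPM and D6 36.0, 42.0 and 41.2 CPM. The D2 difference was 0.94 ± 0.31 on the log2 scale (adjusted p = 0.0403), and those of D4 (-0.15) and D6 (0.10) did not pass. Against D2, the D4 level missed the threshold (log2 -1.09, adjusted p = 0.0595) but was called lower in 12 of 26 alternatives. The D2 call was lost in 11 of 26 alternatives, among them the fits without D0 replicate 1 (0.83), D0 replicate 2 (0.92), D2 replicate 2 (0.80) or D2 replicate 3 (0.90).

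Cdk6, the other partner of the D-type cyclins, was nearly lost from the reads. It had 10, 7 and 9 reads at D0 (24.3, 12.9 and 19.1 CPM), 1, 2 and 0 at D2, 0, 3 and 2 at D4, and 1, 0 and 2 at D6. Every later library was below every D0 library. Pooled over the day, the D6 level was 0.147 times that of D0 (exact 95% counting interval 0.0285 to 0.481, 3 against 26 reads) and the D4 level 0.253 times (0.0757 to 0.668). The interval covers counting error only. The fitted log2 differences were -1.88 ± 0.64 at D4 (adjusted p = 0.0240) and -2.57 ± 0.68 at D6 (adjusted p = 0.00196), and D2 did not pass (adjusted p = 0.181). Cdk6 had 37 reads in all and met the minimum for a test in 21 of 26 alternatives at D4 and 20 at D6. Without D6 replicate 2, which had no read, the D6 difference was -1.56 (adjusted p = 0.0931). The D4 call was lost without D4 replicate 1 (-1.42) or D4 replicate 3 (-2.05). It was also lost with limma trend (-2.04) and with barcode confidence of at least 0.9 (-1.71).

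The inhibitors gave very different read numbers. Cdkn1b (p27) stood at 41.3, 36.8 and 36.1 CPM at D0 and 32.8, 49.4 and 68.0 CPM at D2. It reached 54.7, 50.1 and 65.2 CPM at D4 and 64.8, 84.1 and 57.7 CPM at D6. The D4 and D6 libraries were all above the D0 libraries. The rise was called at D6 (1.82-fold, log2 0.87 ± 0.26, adjusted p = 0.00603), and D4 missed the threshold (log2 0.58, adjusted p = 0.111). The D6 call was lost without D6 replicate 2 (0.71, adjusted p = 0.0654). It was also lost with its most-read transcript alone, 115 of its 224 reads (0.59, adjusted p = 0.215). Only 15 of the 224 reads (6.70%) had a mapping quality of at least 10, too few for a test. Cdkn1a (p21), a p53 target, had no read at D0, which allows up to 0.000190% of the kept reads of that day, and 0 or 1 read in each later library (2 in each of D2, D4 and D6). It was under the minimum of 30 reads and so was not tested. With no filter limma called D2 against D0 (adjusted p = 0.00619) on 2 reads against 0, and since each day was under 3 reads no fold is given.

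**Figure D3:**
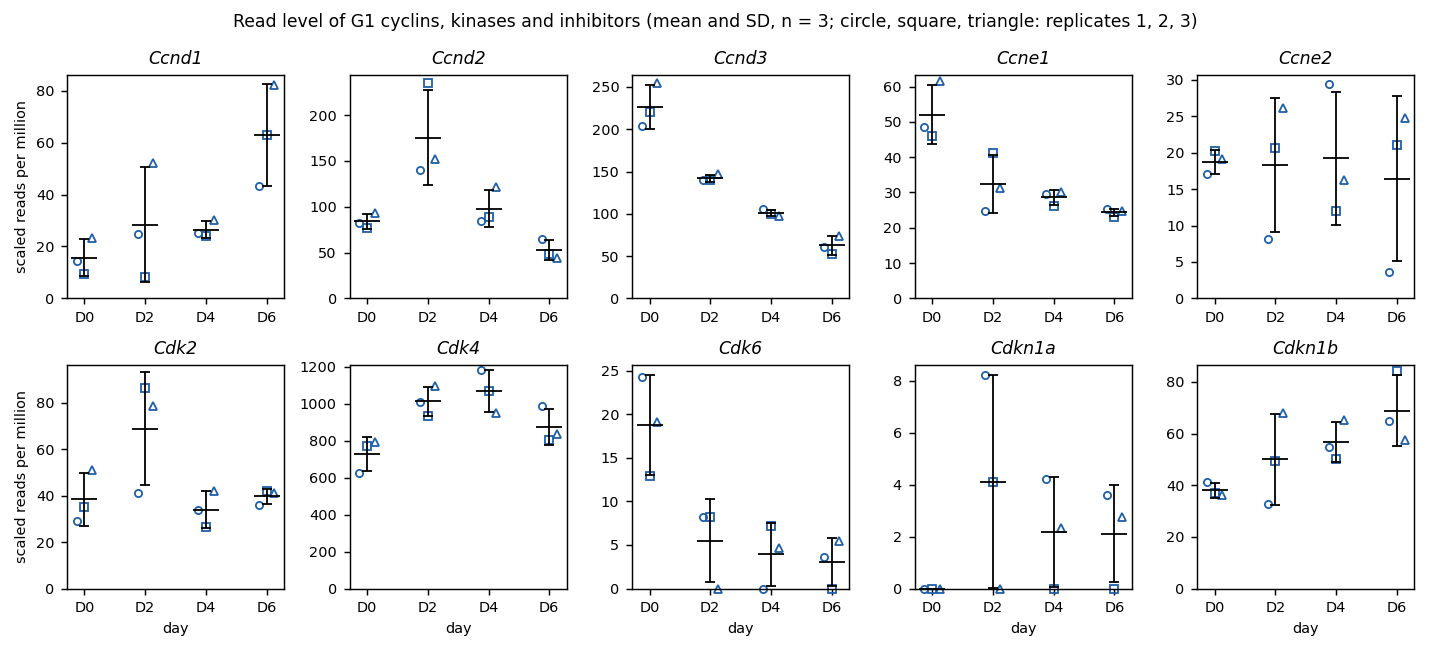
Level of each member in scaled reads per 1000000 (vertical axes from 0, each with its own scale) by day, with every library as a point and the mean and SD of 3. Ccnd3 falls from 204 to 255 at D0 to 52.5 to 74.1 at D6, Ccnd2 peaks at D2, and Ccnd1 and Cdkn1b are highest at D6.

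The rest of the pathway was read from lists written from general knowledge, with earlier results of these data known. Of all genes tested, 4.69% were called higher and 6.16% lower at D2, 12.9% and 12.5% at D4, and 19% and 18.7% at D6. Of 18 tested S phase genes known as E2F targets, 4 rose at D2, 1 rose and 7 fell at D4, and 14 fell at D6 (median log2 -0.69, against 0.00 over all genes). Cdt1, which licenses replication origins, fell from 182 ± 16.6 to 45.5 ± 3.77 CPM at D6 (log2 -1.97, adjusted p = 9.58e-11). The helicase subunits Mcm6 and Mcm3 fell by 1.28 and 1.03 on the log2 scale.

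Among 12 tested pocket proteins and E2F factors, 2 rose and 2 fell at D6, shares near the 19% and 18.7% of all genes. E2f4, an E2F factor that mostly represses, fell from 133 ± 3.46 to 75.2 ± 22.5 CPM (log2 -0.91, adjusted p = 0.000294) and E2f3 from 42.0 ± 7.67 to 18.4 ± 8.43 CPM. Rb1, the retinoblastoma protein itself, rose from 3.74 ± 3.33 to 13.2 ± 8.08 CPM on 30 reads in all, and E2f2 was listed at 0 at D0 and at 17.9 ± 5.97 CPM at D6. Of 3 other tested CDK inhibitors, 2 rose at D6, both of the INK4 family that binds Cdk4 and Cdk6. Cdkn2d went from 25.3 ± 12.8 to 56.9 ± 4.44 CPM (log2 1.31, adjusted p = 0.00161), and Cdkn2c had no read at D0 and 22.4 ± 1.98 CPM at D6. E2f3, Rb1, E2f2, Cdkn2d and Cdkn2c have few reads and were named after their values were seen.

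In the 4 lists that follow, 1 to 4 genes were called in either direction at D6, too few to set apart from the 19% higher and 18.7% lower of all genes, and no group pattern is read from them. Of 7 tested genes that activate the kinases, 1 rose and 2 fell. Cdc37, a chaperone cofactor of Cdk4, fell from 300.5 ± 38.6 to 201 ± 10.7 CPM (log2 -0.57, adjusted p = 0.00124). Of 13 tested ubiquitin ligase genes that act on G1 regulators, 2 rose and 1 fell. Cks1b, the cofactor with which Skp2 recognises Cdkn1b, fell from 408 ± 8.72 to 189 ± 67.1 CPM (log2 -1.21, adjusted p = 1.47e-09), and Skp1a, a core ligase subunit, rose from 212 ± 21.1 to 355 ± 57.0 CPM (log2 0.71). Of 11 tested p53 targets, 2 rose and 4 fell. Of 6 tested G1 transcription and growth factors, 2 rose and 1 fell. Id3, an inhibitor of bHLH transcription factors, rose from 28.2 ± 3.11 to 361 ± 16.2 CPM (log2 3.64, adjusted p = 4.93e-20), and Mycn fell from 106 ± 32.7 to 60.4 ± 8.01 CPM (log2 -0.71, adjusted p = 0.0134).

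Tail length was compared for genes with at least 10 reads in every library, which 1747 genes and, among the members, Ccnd2, Ccnd3 and Cdk4 met. None of these 3 was called by limma at D2 (background 0%, with 209 genes at an unadjusted p under 0.05), D4 (background 5.72%) or D6 (background 8.19%). Ccnd2 medians were 104, 91.8 and 104 nt at D0, 95.7, 113 and 87.4 nt at D2, 126, 113 and 124 nt at D4, and 131, 121 and 122 nt at D6. The D4 and D6 medians were all above the D0 medians. The difference was 21.3 ± 6.65 nt (SE) at D4 (adjusted p = 0.104) and 24.9 ± 8.08 nt at D6 (adjusted p = 0.0890). Without D2 replicate 2 the same differences were called (adjusted p = 0.0426 and 0.0390). Leaving out that library changes only the shared spread and the genes tested. With only the 2 days compared the adjusted p was 0.447 at D4 and 0.258 at D6. Without D0 replicate 2 the differences were 17.1 nt (adjusted p = 0.307) and 20.6 nt (adjusted p = 0.242). Pooled over libraries, 39.2% of Ccnd2 tails were 30 to 90 nt long at D0 and 12.3% at D6, and limma on that percentage called the D6 fall (difference of -26.9 points, adjusted p = 0.0167).

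Ccnd3 and Cdk4 tails moved less. Ccnd3 medians were 75.8, 88.7 and 86.4 nt at D0 and 83.7, 91.0 and 92.4 nt at D6, a difference of 5.25 ± 9.07 nt (adjusted p = 0.804). Its D4 difference was 10.5 ± 7.58 nt (adjusted p = 0.544). Cdk4 medians lay between 101 and 114 nt in all 12 libraries, with a D6 difference of 0.27 ± 3.93 nt (adjusted p = 0.977) and a D4 difference of -2.94 ± 3.77 nt (adjusted p = 0.769). The fall of Ccnd3 reads and the rise of Cdk4 reads stood beside medians that did not pass the test.

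The other members had too few reads for that fit and are described. Cdk2 medians were 126, 135 and 117 nt at D0 (12 to 24 reads) and 154, 153 and 196 nt at D6 (10 to 20 reads), which did not overlap. Ccne1 medians were 89.1, 117 and 114 nt at D0 and 59.5, 81.3 and 89.6 nt at D6 (7 to 11 reads), which overlapped. Cdkn1b had long tails, with pooled medians of 160.0 nt at D0 (54 reads), 141 nt at D2, 169 nt at D4 and 176 nt at D6 (79 reads). Ccnd1 had pooled medians of 97.0 nt at D0 (22 reads), 126 nt at D2, 111 nt at D4 and 130 nt at D6 (72 reads). Ccne2 medians were lower at D2 (92.4 nt, 11 reads) and D4 (93.8 nt, 19 reads) than at D0 (124 nt, 27 reads) or D6 (159.6 nt, 20 reads). With a minimum of 5 reads, Cdk2 entered the fit and its D6 difference was 42.3 nt (adjusted p = 0.193).

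**Figure D4:**
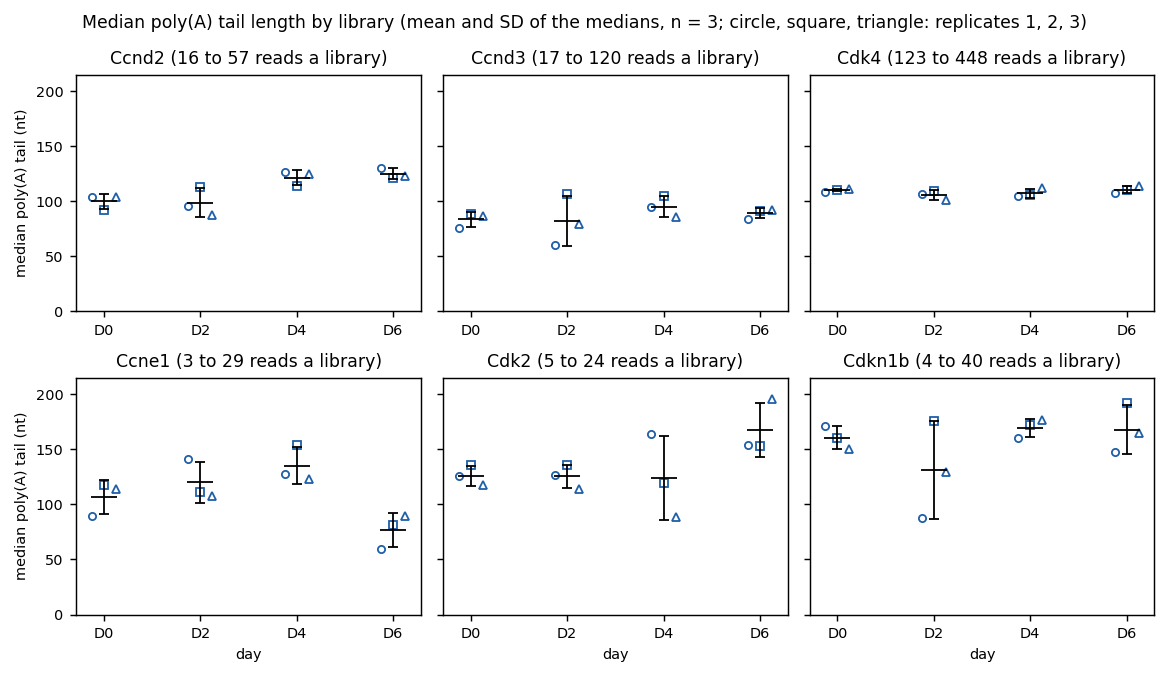
Median poly(A) tail length in nt (vertical axis) of 6 members in each library by day, with the mean and SD of the 3 medians and the range of reads per library above each panel. The Ccnd2 medians are 113 to 126 nt at D4 and 121 to 131 nt at D6, above the 91.8 to 104 nt of D0, and the Cdk4 medians stay between 101 and 114 nt.

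The reads also show where the members' mRNAs end. For Ccnd1, Ccnd2 and Ccnd3 most reads of the leading transcript ended at its annotated 3′ end, after a poly(A) signal, while Cdk4 reads ended elsewhere, so these sites are printed. Each window is the 30 bases around the AATAAA signal, in capitals, on GRCm38. The Cdk4 window is the 30 bases up to its most common read end and holds neither AATAAA nor ATTAAA.
Ccnd1, chr7:144929934-144929963, minus strand: aaaaatctagaaAATAAAattggtaaaatc
Ccnd2, chr6:127125167-127125196, minus strand: tgctatttggacAATAAActcaccttgacc
Ccnd3, chr17:47599658-47599687, plus strand: tcatgctgccttAATAAAgatttcggaata
Cdk4, chr10:127067256-127067285, plus strand: tttatacaggaaaacaagacaagacaaaga
Within 30 bases of the most common end lay 73.9% of 138 Ccnd1 reads, 92.2% of 360 Ccnd2 reads, 98.3% of 236 Ccnd3 reads and 97.4% of 3505 Cdk4 reads. For Cdk4 that end lay 635 bases before the annotated end of its leading transcript (chromosome 10, 127063534 to 127067920, plus strand, 8 exons), in the 3′ UTR, and the share was 97.3%, 98.9%, 96.9% and 97.3% from D0 to D6. Ccnd1 used its annotated end in 63.6%, 80.0%, 65.5% and 79.2% of reads from D0 to D6, on 22, 15, 29 and 72 reads.

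The share of reads that reached the coding sequence differed between members. It was 11.6% for Ccnd1 (annotated 3′ UTR of 2676 nt) and 4.72% for the leading Ccnd2 transcript (5173 nt). It was 99.2% for the leading Cdk4 transcript (899 nt) and 90.7% for Ccne1 (531 nt). The Cdk4 length includes the last 635 bases, which most of its reads did not hold. The leading Cdk6 transcript, with a 3′ UTR of 10217 nt, had 42.4% of 33 reads in the coding sequence. Only 54.5% of these reads ended within 50 bases of its annotated 3′ end, and their median aligned length was 1243 nt. A transcript with a retained intron took 60 of 1048 Cdk4 reads in undifferentiated cells (5.73%), and then 6.08%, 4.22% and 6.04% from D2 to D6. Of its 200 reads over all days 27.0% had a mapping quality of at least 10, against 93.5% for the leading transcript, so this split is uncertain. The leading Cdkn1b transcripts share their start and 3′ end (chromosome 6, 134920401 to 134925513, plus strand), and 6.70% of its reads had a mapping quality of at least 10, so their split was not read.

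Promoter sequences from RefSeq (GRCm38.p6) were given for 7 of the 10 members, 9 in all, and Ccnd1, Ccnd2 and Ccne2 had no entry. TTTNNCGC, on either strand, was found in those of Cdk2 and Cdk6, and TGACGTNA in that of Cdk2. GGGCGG was found 6 times for Cdk2, 4 times for Ccne1, 3 times for Cdk4, 1 time for Cdkn1b and 0 times for Cdk6. It was found 2 times in each Ccnd3 promoter, and 2 times in one and 0 times in the other of the Cdkn1a promoters.

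The genes most like Ccnd3 over the 12 libraries were Hsp90ab1, a chaperone (Pearson r = 0.989), Rplp1, a ribosomal protein (r = 0.981), and Rps2-ps10 (r = 0.981), of 2796 genes averaging 20 or more reads in a library. Those most like Cdk4 were 2810025M15Rik (r = 0.904), Rbm3, a cold-induced RNA-binding protein (r = 0.903), and Hmgn1, a nucleosome-binding protein (r = 0.8996). All share the same libraries and scaling, and reads of Rplp1 and Rps2-ps10 can be split with near-identical copies. The 3 genes like Ccnd3 changed by -1.15, -1.16 and -1.79 on the log2 scale at D6, against -1.86 for Ccnd3.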

How the data were processed

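Direct RNA reads of 12 libraries (D0, D2, D4 and D6, 3 replicates each) were taken from the authors' per-read table of 6306434 lines. The authors aligned reads with minimap2 (2.20 in the submitters' processing notes) to mouse transcripts on mm10, measured tails with Nanopolish and split barcodes by Deeplexicon. In the deposited table, mapping quality is a score of the aligner, barcode confidence is a fraction, and tail length is in nt, not normalized. A deposited table of the authors' own comparisons (DESeq2 fold changes and p-values) was not used. Lines that were malformed (69) or had no barcode (289260) were dropped, and reads tagged PASS, of class mRNA, not mitochondrial and not of pseudogene biotype were tallied per gene (4274320 reads, 0.056% repeating a read name).

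Tallies were scaled by the trimmed mean of M-values (30% of ratios and 5% of levels trimmed) and fitted with limma-voom (limma 3.58.1, R 4.3.3; pseudocount 0.5 reads) over all 12 libraries, for genes with at least 30 reads, with Benjamini-Hochberg adjustment and a threshold of 0.05. Median tails, weighted by reads, were fitted with limma. Shares were compared by exact permutation. Levels are reads divided by scaled library size, per 1000000. Kept reads were 120326 to 613756 per library, so a gene with 10 reads is known only roughly. Groups came from the labels. Steps were tested on simulated data. The text names all 10 members; of other lists, genes called at D6 that average 20 or more reads in a library, at most 4 per list (1 such gene is not reported here); and the 3 genes most correlated with the member that rose most and the member that fell most, under the same minimum. Another 5 list genes with fewer reads and 2 marker genes were named after their values were seen. Members and lists were chosen with earlier results of these data known. Transcript positions are those of the table, and all 30 member transcripts have the same coordinates in the reference annotation (GENCODE M21). Alternatives are given at the end. Python 3.11.15, numpy, pandas and scipy were used.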

Additional observations from a re-analysis of the deposited data

How the results depend on the processing

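Of 855 single-gene abundance values under alternatives, 740 kept direction and side of the threshold, 74 lost the call, 22 gained one and 19 changed sign; of 120 tail values the numbers were 109, 0, 3 and 8. Causes were not tested, except that thinning and a mapping quality of at least 10 leave fewer reads. Thinning and the minimum of 5 reads for tails were chosen after seeing the data, as were the alternatives for shares.

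Members called at D2, D4 and D6 against D0 (4, 4 and 6) became 1, 2 and 3 with thinned libraries. They were 2 at D2 with barcode confidence of at least 0.9, 2 at D2 with transcripts, 2 at D4 with limma trend, and 2 at D2 and at D4 with mapping quality of at least 10. With transcripts, each member was represented by its most-read transcript alone. For D4 against D2 (1) they were 2 with at least 120 reads, median-of-ratios scaling, only the 2 days compared, pseudocount 2 or total reads, and 0 thinned. For D6 against D4 (3) they were 0 with mapping quality of at least 10, 0 thinned and 1 with transcripts. With no filter, Cdkn1a was called at D2 on 2 reads against 0. Leaving out 1 replicate gave 2 to 4, 2 to 4, 4 to 6, 0 to 2 and 0 to 3 members.

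Genes called at D2 (1010) became 570 with mapping quality of at least 10, 1615 unfiltered, 1579 with pseudocount 2 and 342 thinned. D4 (2364) became 630 thinned. D6 (3510) became 2179 with mapping quality of at least 10 and 1219 thinned. D4 against D2 (289) became 455 with limma trend and 116 thinned. D6 against D4 (788) became 431 with limma trend, 413 with mapping quality of at least 10 and 210 thinned. Leaving out 1 replicate gave 654 to 1025, 1802 to 2391, 2796 to 3530, 165 to 320 and 437 to 788 genes.

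For tails, genes called at D2 (0) became 7 with at least 20 reads. D4 (100) became 0 with at least 5 reads or only the 2 days compared, 1 for the percentage under 30 nt, and 40 unweighted. D6 (143) became 32 with at least 5 reads, 1 with only the 2 days compared, 84 for 30 to 90 nt, 3 for under 30 nt, and 79 unweighted. Members called at D6 (0) became 1 for 30 to 90 nt (Ccnd2). Leaving out 1 replicate gave 0 to 2, 0 to 117 and 28 to 139 genes, 0 members at D2, and 0 to 1 at D4 and D6.

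Not every same-numbered pair of libraries correlated above 0.1 in its deviations from the day means (r from -0.138 to 0.172, against -0.202 to 0.171 for other numbers), so the numbers were not taken to pair the libraries. Among D2, D4 and D6 the 9 same-numbered pairs were all positive (0.0302 to 0.171), a hint from the data only, and not every library correlated best with its own number. The replicate block gave 3, 3 and 6 members, 1047, 2067 and 3150 genes, and 51 and 79 genes for tails at D4 and D6. With it Cdk2 at D2 (0.91, adjusted p = 0.0865), Ccne1 at D4 (-0.83, adjusted p = 0.0770) and Ccnd3 at D6 against D4 (-0.68, adjusted p = 0.0545) were not called.

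Values that changed sign were none of them called. With mapping quality of at least 10 they were Ccnd1 at D2 (-0.41), Cdk2 at D4 (1.33) and against D2 (0.029), Ccnd3 at D4 against D2 (0.52), the Cdk4 tail at D6 (-0.32 nt) and the Ccnd2 share (-20.5 points). Thinned, they were Ccne1 at D2 (0.11), Ccnd2 at D4 (-0.060) and Cdk2 at D4 (0.094). With transcripts they were Ccne2 at D4 (0.48) and D6 (0.37) and Cdkn1b at D4 (-0.17), and with all quality tags Cdk2 at D4 (0.027) and Ccne2 at D6 (0.013). Against the median tail, the percentage under 30 nt went the other way for Ccnd3 at D4 (1.81 points) and D6 (1.57) and Cdk4 at D6 (3.33), the percentage of 30 to 90 nt for Cdk4 at D4 (-0.48), and the mean log2 length for Cdk4 at D6 (-0.019). Leaving out 1 replicate gave -0.022 to 1.52 for Ccnd1 at D2, -0.11 to 0.33, -0.39 to 0.11 and -0.58 to 0.25 for Ccne2 at D2, D4 and D6, -0.36 to 0.062 and -0.026 to 0.34 for Cdk2 at D4 and D6, and -1.27 to 1.67 nt for the Cdk4 tail at D6. D-type shares at D6 minus D0 ranged from 27.3 to 35.1 points for Ccnd1, -0.20 to 7.99 for Ccnd2 and -35.3 to -32.8 for Ccnd3.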
